A study of Homo sapiens with 6 samples.

Results

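The Notch genes measured here were 10 genes named by symbol, the ligands DLL3, DLL4, JAG1 and JAG2, the receptors NOTCH1, NOTCH2 and NOTCH3, and the target or feedback genes HES1, HEY1 and NRARP. They were 10 of the 22077 genes with counts, and all 10 were among the 14162 genes that passed the filter on low counts and were tested. The group was chosen by gene name with the fold changes of TKT overexpression against vector control, in these same libraries, already known. For that reason the members' counts, levels and fold changes are given as a description, with no p-value. Where a member is said to be called, this records only on which side of the threshold it fell in the fit over all genes; it is no independent test, and nothing is concluded from how many members fell there.

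RNA sequencing compared hepatocellular carcinoma cells overexpressing TKT, the transketolase of the pentose phosphate pathway, with cells that received the vector, 3 libraries each. The cell line was labelled Hu7 and was taken as Huh7, a human hepatoma line, the line that the study's results name for this sequencing, although its methods name HCCLM3 for the overexpression. Cells of both groups were transfected with a plasmid carrying GFP and puromycin resistance and selected, and the labels give their genotypes as over-expression and wt (wild type). Total counts were 31618541, 30148788 and 33815829 in control libraries 1 to 3 and 37096156, 31188058 and 32406994 in TKT libraries 1 to 3. TKT itself had 15626, 14256 and 17275 counts in the controls and 348402, 294602 and 308875 counts in the TKT libraries. Every library thus matched its label, with a log2 difference of 4.26 (standard error 0.04) and no overlap between groups, and these counts do not separate introduced from endogenous transcripts.

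Notch signaling passes between touching cells. A ligand of the Delta or Jagged type on one cell binds a Notch receptor on its neighbour, the receptor is cleaved, and its intracellular part enters the nucleus, where it joins the DNA-binding protein RBPJ and a Mastermind coactivator to switch on target genes such as HES1. In the liver, signaling from JAG1 to NOTCH2 is known for directing the formation of bile ducts.

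The target gene HES1, the ligand JAG1 and the receptor NOTCH2 were each between 1.22-fold and 1.30-fold higher in TKT-overexpressing cells, with no overlap between groups. The low-abundance ligand DLL4 was 3.35-fold higher. NOTCH1, NOTCH3, HEY1 and NRARP overlapped between groups, with log2 fold changes between -0.04 and 0.02. DLL3 and JAG2 lay above the controls in all 3 TKT libraries but were not called. A call here is an adjusted p under 0.05 in edgeR's quasi-likelihood test, adjusted by Benjamini-Hochberg over all tested genes.

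By this rule 4 of the 10 members were called, all higher, against 1505 of all tested genes (10.6%), of which 806 were higher (5.69%) and 699 lower (4.94%). Adding an absolute log2 fold change over 1, the threshold of the study's methods, to the edgeR calls left DLL4 alone among the members. Of all tested genes it left 103 (0.727%), 99 higher and 4 lower. DESeq2, the tool of those methods, did not call DLL4. DLL4 passed the filter on low counts only through the TKT libraries, so its place in these counts follows in part from the filter. The groups did not overlap in 6 members, all higher, while 28% of all tested genes did not overlap, 14.1% with higher and 13.9% with lower values under TKT. Because the choice of members used this contrast, nothing is read from these counts. The count over all genes was 881 without control library 1 and 791 without TKT library 1, and the count of members was 2 without TKT library 1. The median log2 fold change was 0.23 over the members and 0.00082 over all tested genes. In RNA from whole cultures, more cells with a transcript and more of it per cell cannot be told apart.

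**Figure D1:**
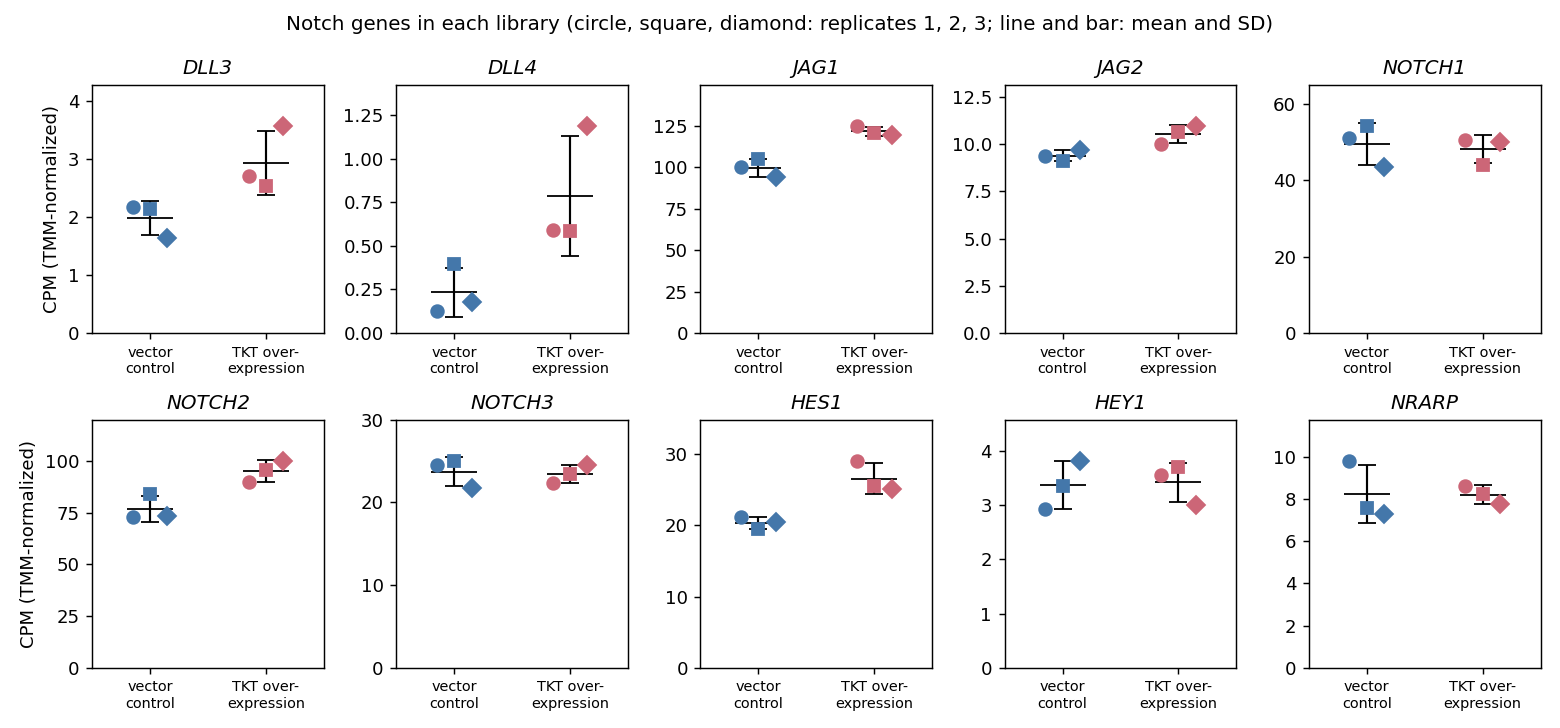
Counts scaled to a common library size (CPM, normalized by the trimmed mean of M-values, TMM) of the 10 Notch genes in each library, with control libraries in blue, TKT libraries in red, and the mean and SD of each group in black; each axis starts at 0. JAG1 (99.7 against 122 CPM), NOTCH2 (76.8 against 95.2) and HES1 (20.4 against 26.5) are separated between groups, while NOTCH1, NOTCH3, HEY1 and NRARP overlap.

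Among the ligands, JAG1 was the most abundant. Its gene occupies bases 10637684 to 10673999 of chromosome 20, minus strand, in GRCh38 (all gene positions are from GENCODE 29). JAG1 had 3141, 3190 and 3160 counts in control libraries 1 to 3 and 4625, 3726 and 3940 counts in TKT libraries 1 to 3. TKT library 1, the deepest of the 6, held the highest count, and after normalization all 3 TKT libraries lay close together and above all 3 controls. Mean levels were 99.7 ± 5.42 CPM in the controls and 122 ± 2.65 CPM under TKT (SD, n = 3 each), a log2 difference of 0.29 (standard error 0.05). An antisense gene shares 79 exonic bases with JAG1, and whether the counting used strand was not given in the sources used here.

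JAG2, a second ligand of the Jagged type, lies on chromosome 14 from 105140981 to 105168824 on the minus strand. It had 294, 277 and 325 counts in the controls and 370, 329 and 360 in the TKT libraries. Normalized to CPM, the lowest TKT library (9.98) stood just above the highest control (9.68). Its difference of 0.17 on the log2 scale (standard error 0.11) was not called. A further transcript annotated on the same strand shares 469 exonic bases with JAG2, so part of its counts could belong to either.

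DLL4, a Delta-type ligand best known from blood vessels, was the scarcest member, on chromosome 15 from 40929333 to 40939073 on the plus strand. It had 4, 12 and 6 counts in the controls and 22, 18 and 39 in the TKT libraries. All TKT libraries exceeded all controls, and TKT library 3 held the highest value. The log2 fold change was 1.75 (standard error 0.56), and it ranged from 1.33 without TKT library 3 to 2.33 without control library 2. The call was lost when control library 1 or 3 or any 1 of the TKT libraries was left out, with log2 fold changes between 1.33 and 1.91. On the scale of log2(FPKM + 1) the difference was 0.15 and on that of log2(FPKM + 0.1) it was 0.82, neither of them called by limma. DESeq2, the tool of the study's methods, gave DLL4 no adjusted p and did not call it.

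DLL3 is a divergent Delta-type protein that does not activate receptors on neighbouring cells, and its gene lies on chromosome 19 from 39498895 to 39508481 on the plus strand. Its counts were 68, 65 and 55 in the controls and 100, 78 and 117 in the TKT libraries. TKT library 3 was again the highest (3.56 CPM), and the other TKT libraries (2.70 and 2.53 CPM) were closer to control libraries 1 and 2 (2.16 and 2.14 CPM). The log2 difference of 0.56 had a standard error of 0.23 and was not called.

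Summed over the 4 ligands, the level per length was 12.9 ± 0.754 FPKM (fragments per kilobase of transcript, scaled to sequencing depth) in the controls and 16.0 ± 0.438 FPKM under TKT (SD, n = 3 each). JAG1 made up between 79.5% and 83.2% of this sum in every library, so the sum mostly restates JAG1.

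**Figure D2:**
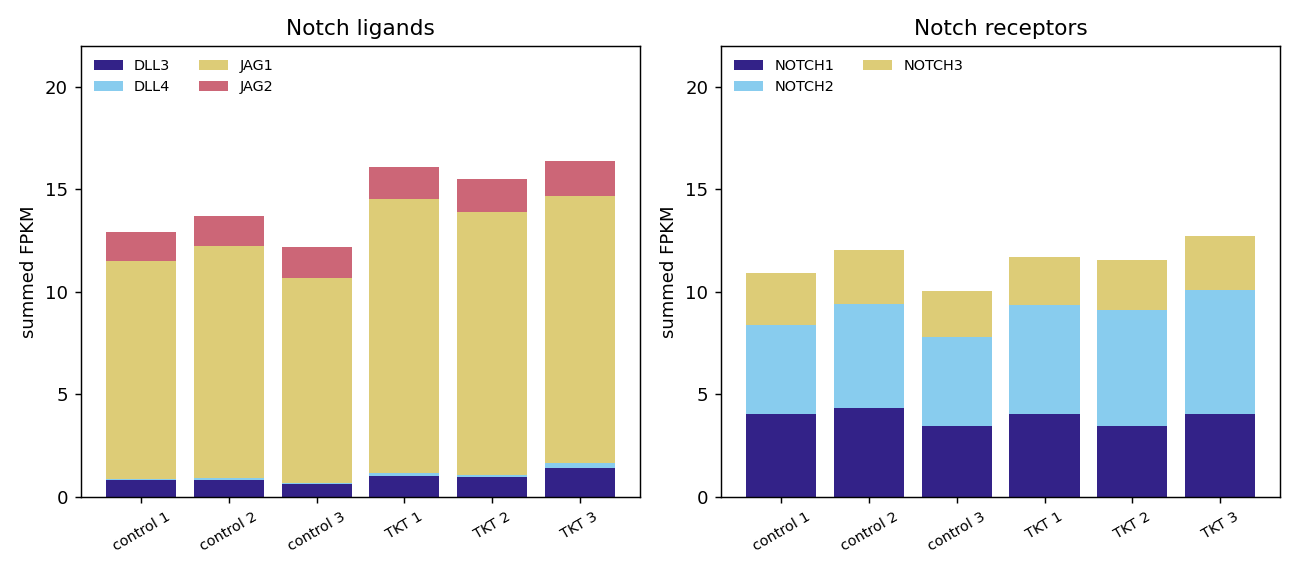
Summed FPKM of the ligands (left) and of the receptors (right) in each library, stacked by gene. JAG1 fills at least 79.5% of each ligand bar, and the NOTCH2 segment takes between 39.4% and 43.2% of the receptor bars of the controls and between 45.6% and 48.8% of those under TKT.

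NOTCH2 was the receptor with the highest level per length in both groups. Its gene lies on chromosome 1 from 119911553 to 120069626 on the minus strand. It had 2289, 2553 and 2468 counts in the controls and 3325, 2956 and 3289 in the TKT libraries. Every TKT library was above every control in CPM, the closest being TKT library 1 (89.7) and control library 2 (84.0). The means were 76.8 ± 6.27 CPM and 95.2 ± 5.17 CPM (SD, n = 3 each), which gave a log2 fold change of 0.31 (standard error 0.06). NOTCH2 has the human-specific partial copies NOTCH2NLA, NOTCH2NLB and NOTCH2NLC, with which it can share reads. Each of these had at most 21 counts in any library, and adding their counts to NOTCH2 left the log2 fold change at 0.31. So few counts could hardly move it. The multimapping options were not given, and reads that match a copy equally well may be in neither count. The sum therefore cannot show whether shared reads affected NOTCH2. The call was not made by limma on the FPKM values, where the log2 differences were 0.26 with a pseudocount of 1 and 0.31 with one of 0.1.

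NOTCH1, on chromosome 9 from 136494433 to 136545786 on the minus strand, is the receptor best known from T-cell leukaemia. It had 1608, 1645 and 1459 counts in the controls and 1872, 1360 and 1643 in the TKT libraries. Control library 3 and TKT library 2 were low (43.5 and 44.1 CPM) and the other 4 libraries lay between 49.96 and 54.1 CPM, so the groups overlapped fully. The difference was -0.04 on the log2 scale with a standard error of 0.08.

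NOTCH3, a receptor prominent in vascular smooth muscle, lies on chromosome 19 from 15159038 to 15200981 on the minus strand. Counts of 770, 760 and 729 were found in the controls and 827, 723 and 808 in the TKT libraries. The groups overlapped, with means of 23.7 ± 1.77 and 23.4 ± 1.13 CPM (SD, n = 3 each) and a log2 difference of -0.02 (standard error 0.08).

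Receptor levels summed to 11.01 ± 0.998 FPKM in the controls and 11.995 ± 0.625 FPKM under TKT (SD, n = 3 each), and these sums overlapped between groups. The share of NOTCH2 in the sum did not overlap. NOTCH2 accounted for 39.4%, 41.8% and 43.2% of receptor FPKM in the controls and for 45.6%, 48.8% and 47.5% in the TKT libraries. NOTCH2 over NOTCH1, as a ratio of FPKM, was 1.07, 1.16 and 1.27 in the controls and 1.33, 1.63 and 1.498 in the TKT libraries. Both quantities were higher in each TKT library than in any control, with NOTCH1 as the less abundant of the pair throughout. They use the same NOTCH2 values as above and are no separate evidence.

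HES1 encodes a basic helix-loop-helix repressor and is the classical direct target of the cleaved receptor; its protein also represses its own gene. It lies on chromosome 3 from 194136145 to 194138732 on the plus strand. The 250 bases upstream of its start, at chr3:194135898-194136147 on the plus strand (RefSeq, GRCh38.p14), are shown because HES1 is the member in which matches to the RBPJ core were found, and the capitals mark those matches.
HES1 promoter: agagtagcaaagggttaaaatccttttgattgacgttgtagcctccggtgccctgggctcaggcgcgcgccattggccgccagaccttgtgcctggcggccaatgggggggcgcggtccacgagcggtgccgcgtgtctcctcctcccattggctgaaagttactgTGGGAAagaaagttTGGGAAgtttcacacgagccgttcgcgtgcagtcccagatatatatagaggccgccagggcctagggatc

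The core bound by RBPJ was searched as TGGGAA on both strands in the 250 bases upstream of each gene start. Other forms of the site were not searched, so the matches need not be all RBPJ sites. In the HES1 promoter TGGGAA was found 2 times on the plus strand, at positions -84 to -79 and -70 to -65, where -1 is the base next to the start. Of 35116 promoters in the table, 20.8% held this core and 2.9% held it at least 2 times. The search covered 8 of the 10 members, all except DLL3 and HEY1, and HES1 was the 1 member with a match. The N-box of HES proteins, searched as CACNAG, was present in 32.0% of promoters. It occurred 3 times in that of HES1 and 1 time in that of NOTCH3. A further sequence that HES proteins bind, CACGCG, was present in 9.72% of promoters, 2 times in that of HES1 and 1 time each in those of DLL4 and JAG2. Among the 15750 promoters of tested genes, CACGCG was present in 14.4%, the RBPJ core in 19.2% and the N-box in 30.1%. None of the HES1 matches overlapped another. These matches describe letters in the reference and not occupied sites, and no binding was measured here.

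For comparison, the same window is given for the other 3 called members, on the strand of each gene. There are no capitals, since none of these windows holds TGGGAA. JAG1 lies at chr20:10674000-10674249 (minus strand), NOTCH2 at chr1:120069663-120069912 (minus strand) and DLL4 at chr15:40929090-40929339 (plus strand). Their GC contents were 68.4%, 72.8% and 70.0%, above the 59.2% of the HES1 window and the median of 58% over all promoters.
JAG1 promoter: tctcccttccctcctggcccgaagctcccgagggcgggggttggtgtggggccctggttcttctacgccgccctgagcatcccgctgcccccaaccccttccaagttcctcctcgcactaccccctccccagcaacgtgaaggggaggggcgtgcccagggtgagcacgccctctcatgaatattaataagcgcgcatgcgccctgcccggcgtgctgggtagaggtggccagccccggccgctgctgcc
NOTCH2 promoter: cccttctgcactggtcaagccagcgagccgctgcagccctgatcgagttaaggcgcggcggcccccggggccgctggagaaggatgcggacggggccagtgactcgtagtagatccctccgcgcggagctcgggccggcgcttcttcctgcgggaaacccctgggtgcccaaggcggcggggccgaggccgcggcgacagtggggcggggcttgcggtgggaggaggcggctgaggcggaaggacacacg
DLL4 promoter: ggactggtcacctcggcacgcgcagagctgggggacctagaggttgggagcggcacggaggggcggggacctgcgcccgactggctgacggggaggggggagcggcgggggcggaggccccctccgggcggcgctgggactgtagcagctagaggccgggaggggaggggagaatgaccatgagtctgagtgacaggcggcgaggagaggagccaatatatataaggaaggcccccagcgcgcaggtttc

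HES1 had 665, 592 and 687 counts in the controls and 1075, 785 and 827 in the TKT libraries. TKT library 1 stood highest at 29.01 CPM, TKT libraries 2 and 3 were close to each other (25.4 and 25.1 CPM), and the controls lay lower, between 19.5 and 21.2 CPM. Group means of 20.4 ± 0.843 and 26.5 ± 2.15 CPM (SD, n = 3 each) gave a log2 fold change of 0.38 (standard error 0.08). Without TKT library 1 the log2 fold change was 0.31 and HES1 was no longer called.

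HEY1, a repressor related to HES1 and a Notch target in many tissues, had 92, 102 and 128 counts in the controls and 132, 114 and 99 in the TKT libraries. The groups were interleaved, with the highest CPM in control library 3 (3.81) and the lowest in control library 1 (2.93). The log2 difference was 0.02 with a standard error of 0.20 and, at these counts, was less precise than that of HES1 (standard error 0.08).

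NRARP is a small ankyrin-repeat protein that is induced by Notch and restrains it by lowering the level of the cleaved receptor. The gene lies on chromosome 9 from 137300482 to 137302251 on the minus strand. Its counts were 308, 230 and 245 in the controls and 320, 254 and 255 in the TKT libraries. In CPM, control library 1 was the highest (9.80) and control libraries 2 and 3 the lowest (7.57 and 7.30), with all TKT libraries between them. The log2 difference was -0.0024 (standard error 0.14).

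**Figure D3:**
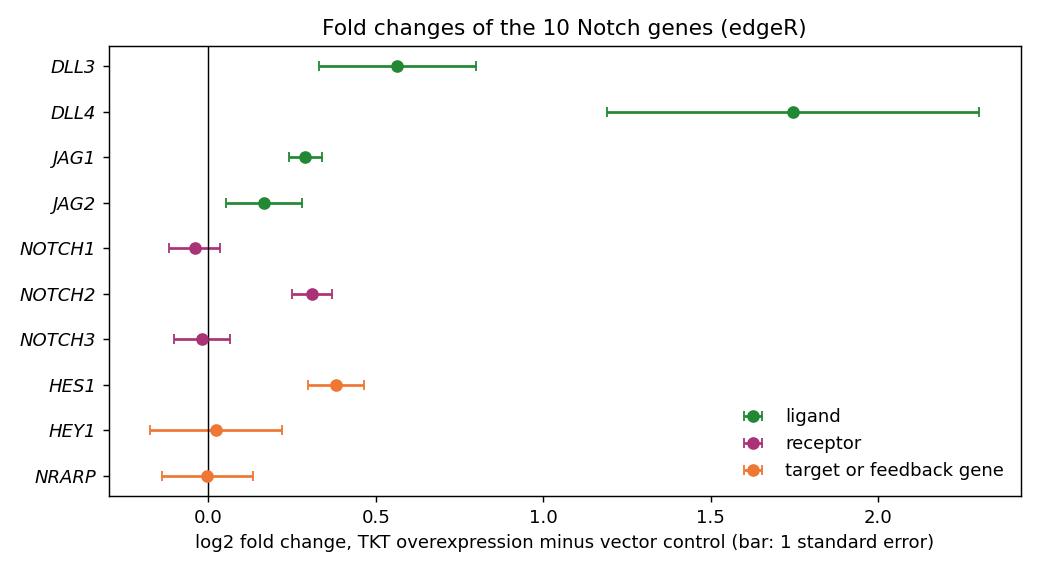
Log2 fold changes of the 10 Notch genes, TKT overexpression minus vector control, with bars of 1 standard error, coloured by role. DLL4 is highest and least precise (1.75, standard error 0.56), JAG1, NOTCH2 and HES1 lie between 0.29 and 0.38, and NOTCH1, NOTCH3, HEY1 and NRARP lie between -0.04 and 0.02.

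Levels were compared between genes per length. In the controls the order was JAG1 (10.7 FPKM), HES1 (9.84), NOTCH2 (4.56), NOTCH1 (3.94), NRARP (3.10), NOTCH3 (2.51), JAG2 (1.46), DLL3 (0.753), HEY1 (0.610) and DLL4 (0.0491). JAG1 and HES1, NOTCH2 and NOTCH1, NOTCH1 and NRARP, and DLL3 and HEY1 were neighbours whose control libraries overlapped. The same order held under TKT, from JAG1 (13.1 FPKM) and HES1 (12.9) to HEY1 (0.622) and DLL4 (0.166). There JAG1 and HES1 still overlapped and no other pair of neighbours did. By mean FPKM over all 6 libraries, JAG1 lay above 75.5% of tested genes, HES1 above 74.7%, and DLL4 above 4.604%.

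**Figure D4:**
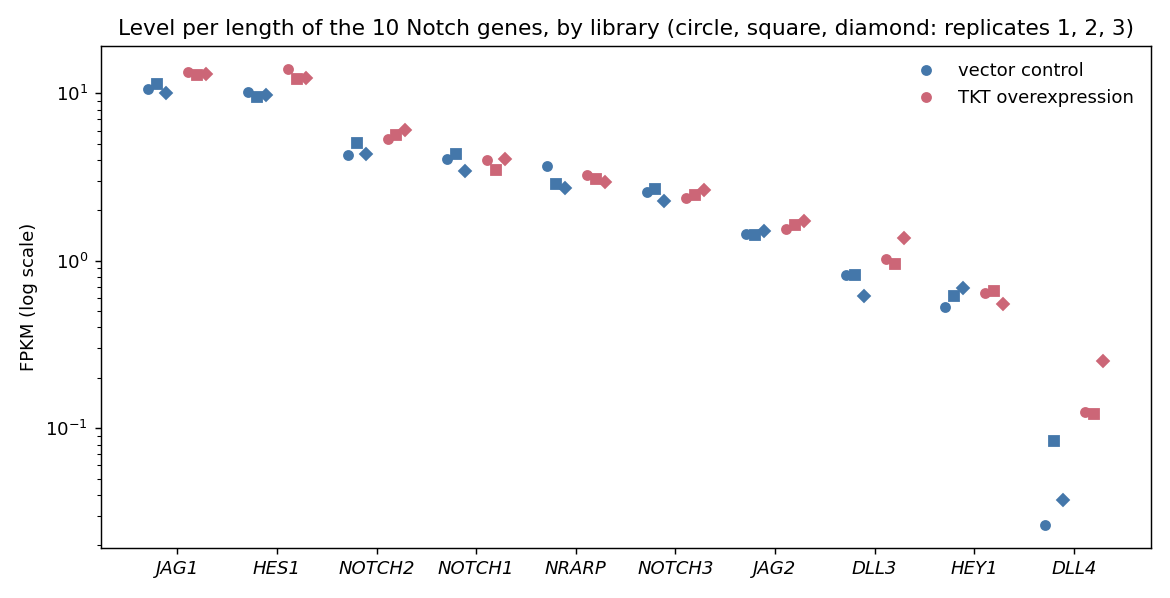
FPKM of the 10 Notch genes on a log axis, ordered by mean level, with 1 point per library. Control means run from 10.7 FPKM for JAG1 to 0.0491 FPKM for DLL4, and the order of the genes is the same in both groups.

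Over the 6 libraries, the genes whose profile of centred log2 CPM was most like that of HES1 were HULC, DUSP4 and ZNF160. Their root mean square differences from HES1 were 0.0333, 0.0502 and 0.0533 log2 units, among 11232 candidates whose log2 CPM averaged 1 or more and whose median difference was 0.229. HULC is a long noncoding RNA abundant in hepatocellular carcinoma, and DUSP4 is a phosphatase that acts on MAP kinases. DUSP4 was called higher, with a log2 difference of 0.37 (standard error 0.06). HULC (0.35, standard error 0.20) and ZNF160 (0.28, standard error 0.10) were not called, nor in any of 15 alternatives. On the scale of log2(FPKM + 1) the difference of HULC was 0.02. All 3 shared with HES1 the highest value in TKT library 1. Of the members, JAG1 (0.0960) came closest to the profile of HES1, followed by NOTCH2 (0.152) and JAG2 (0.152), and DLL4 (0.803) was farthest. These likenesses describe 6 libraries that share their groups and depths.

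The rest of the pathway was taken from a list of 65 further genes by role. Of these 58 were among the genes with counts and 55 were tested. Under TKT overexpression 4 of these rose and 3 fell, which is 12.7% called beside 10.6% of all tested genes, and the median log2 fold change was 0.01. Like the members, the list was chosen with earlier results of these data known, so its share of calls is a description. Adjusted p-values printed below for genes of the list come from the fit over all genes and are no independent test. The 4 higher genes were BHLHE41, MAML3, CREBBP and TLE1, and the 3 lower ones MIB2, TLE5 and HDAC1. Without control library 1, control library 3 or TKT library 1 the list held 4 called genes, and it held 9 with DESeq2 and 10 with no filter on low counts. The deposited annotation has its own Notch signaling pathway with 56 genes, of which 43 outside the members were tested and 4 called (9.3%), namely MAML3, CREBBP and TLE1, which were higher, and HDAC1, which was lower. DLL1, DLK1, NOTCH4, DTX1, HES3, HES5 and HELT had no entry among the genes with counts, and DNER, PSEN2 and HEY2 were too low to be tested.

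Of 26 tested signal-sending and receptor-processing genes 1 was called (3.85%, beside 10.6% of all tested genes). MIB2, a ubiquitin ligase that promotes the endocytosis of ligands in the sending cell, had 1286, 1175 and 1448 counts in the controls and 1197, 888 and 1070 under TKT. All TKT libraries lay below all controls in CPM (28.8 to 32.5 against 38.7 to 43.1). MIB2 fell by 0.39 on the log2 scale (standard error 0.07, adjusted p = 0.000481 by edgeR's quasi-likelihood test, Benjamini-Hochberg), and an antisense gene shares 219 exonic bases with it. Its relative MIB1, the most abundant gene of this role in the mean over all 6 libraries (4.30 FPKM against 4.12 for MIB2, although MIB2 was ahead in the controls), had a log2 difference of 0.02 (standard error 0.06). The 5 glycosyltransferases that modify the receptors had log2 differences between -0.30 and -0.03, and the most abundant was POFUT1, which adds fucose (27.4 against 26.5 FPKM). Among the 8 tested cleavage genes FURIN was the most abundant (86.2 against 88.4 FPKM), and among the 8 tested turnover genes it was NUMB (5.01 against 5.27 FPKM). None of the 5, 8 and 8 tested genes of these 3 roles was called in the edgeR fit reported here, DESeq2 or limma. Calls by role under the other edgeR settings are not given here. In the reported edgeR fit 10.6% of all tested genes were called, and 23.8% had an unadjusted p under 0.05. Of these 3 roles, 0, 2 and 4 genes had an unadjusted p under 0.05 in that fit. For roles with calls it was 1 of 4 ligand endocytosis genes and 7 of 9 nuclear activators. It was also 4 of 13 genes listed as corepressors and 3 of 7 genes of the HES and HEY family with BHLHE40 and BHLHE41. DLK2, the 1 tested ligand outside the members, had 2.43 FPKM in the controls and 2.23 under TKT.

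Among 9 tested nuclear activators 2 were called, both higher. Among 13 genes listed as corepressors 1 was called higher and 2 lower, beside 10.6% of all tested genes. MAML3, a Mastermind coactivator, had 547, 435 and 532 counts in the controls and 800, 658 and 690 under TKT. Its TKT libraries were tightly grouped (20.98 to 21.6 CPM) above the controls (14.3 to 17.4 CPM). MAML3 rose by 0.43 on the log2 scale (standard error 0.09, adjusted p = 0.00427 by edgeR's quasi-likelihood test, Benjamini-Hochberg). It shares 252 exonic bases on the opposite strand with MGST2, which had up to 2080 counts, and reads there could not be assigned without strand. CREBBP, an acetyltransferase, rose by 0.19 (standard error 0.06, adjusted p = 0.0412 in the same edgeR test). RBPJ, the DNA-binding partner, was at 96.9 ± 5.99 CPM in the controls and 102 ± 2.47 CPM under TKT (SD, n = 3 each), and was not called. KAT2A, the most abundant nuclear activator, had 31.3 and 28.4 FPKM. Another Mastermind gene, MAML1, named after its values were seen, had 194 counts in TKT library 3 and between 38 and 68 in the other libraries, with a log2 difference of 1.14 (standard error 0.47). KAT2A and MAML1 were called by DESeq2 but not in the edgeR fit to all 6 libraries reported here. KAT2A was also called in edgeR with no filter on low counts (adjusted p = 0.0451) and without control library 2 (adjusted p = 0.0149), among 15 alternatives whose adjusted p-values ran from 0.0149 to 0.269.

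Among the 13 genes listed as corepressors, TLE1 rose by 0.15 (standard error 0.04, adjusted p = 0.0306, edgeR's quasi-likelihood test, Benjamini-Hochberg). TLE1 belongs to the Groucho family, which HES proteins recruit. TLE5, a short family member that lacks the repeat domain of the others, fell by 0.22 (standard error 0.04, adjusted p = 0.00184 in the same edgeR test). The fall of TLE5 is not read as a loss of corepression. HDAC1, a deacetylase and the most abundant corepressor, fell by 0.12 (standard error 0.04, adjusted p = 0.0452 in the same edgeR test), from 78.1 to 72.3 FPKM. In each of these 3 genes the groups did not overlap. The calls of CREBBP, HDAC1 and TLE1 depended on single libraries, and over 15 alternatives their adjusted p-values (edgeR, DESeq2 or limma) ran from 0.00482 to 0.2202, from 0.0150 to 0.198 and from 0.0125 to 0.121. CREBBP and HDAC1 were each called in 1 of the 6 fits that left out a library, the one without control library 2, and their edgeR adjusted p-values in the other fits ran from 0.0623 to 0.2202 and from 0.0653 to 0.198. TLE1 was lost without control library 1 or 3 or TKT library 1 or 2 (adjusted p from 0.0763 to 0.121 in edgeR).

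The HES and HEY family outside the members, listed here together with the related genes BHLHE40 and BHLHE41, had 7 tested genes. Of these 1 was called (14.3%, beside 10.6% of all tested genes), namely BHLHE41. No HES or HEY gene outside the members was called in the edgeR fit reported here. The deposited Notch signaling pathway holds neither BHLHE40 nor BHLHE41. BHLHE41, a repressor of the circadian clock with a domain like that of HES1, had 24, 22 and 26 counts in the controls and 127, 58 and 110 under TKT. The controls were nearly equal and all TKT libraries stood above them, TKT library 2 least. BHLHE41 rose by 1.93 on the log2 scale (standard error 0.29, adjusted p = 0.000119 by edgeR's quasi-likelihood test, Benjamini-Hochberg), and by 0.54 on the scale of log2(FPKM + 1), which compresses low values. It shares 162 exonic bases on the opposite strand with SSPN, which had at most 49 counts, and reads there could not be assigned without strand. HES4, the most abundant of the family at 17.6 ± 1.35 FPKM in the controls and 20.8 ± 2.30 FPKM under TKT (SD, n = 3 each), was above HES1 per length. Its log2 difference of 0.23 (standard error 0.09) was not called (adjusted p = 0.134, edgeR's quasi-likelihood test, Benjamini-Hochberg).

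**Figure D5:**
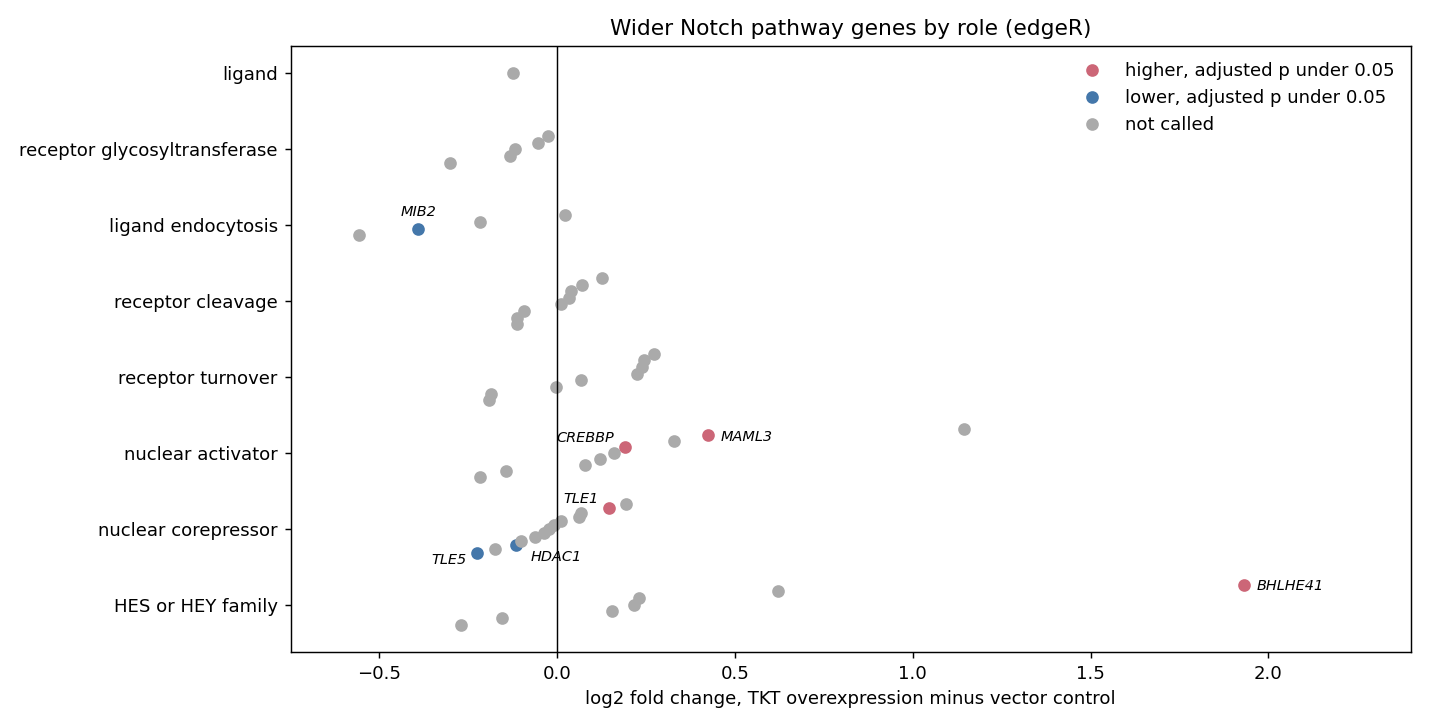
Log2 fold changes of the 55 tested Notch pathway genes outside the 10 members, by role, each point 1 gene, with called genes coloured and named. Called genes run from -0.39 for MIB2 to 1.93 for BHLHE41, and no gene is called among the glycosyltransferases, the cleavage genes and the turnover genes.

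Biliary genes were examined because Notch signaling directs bile duct formation. Of 13 listed genes 9 were tested and 3 were called, all higher, beside 10.6% of all tested genes. In edgeR 6 of the 9 had an unadjusted p under 0.05, beside 23.8% of all tested genes. This list was also chosen with earlier results of these data known, so its share of calls is a description. The adjusted p-values of its genes are likewise no independent test. SPP1, which encodes the secreted protein osteopontin, had 554, 505 and 588 counts in the controls and 952, 868 and 750 under TKT, with no overlap after normalization. SPP1 rose by 0.57 on the log2 scale (standard error 0.09, adjusted p = 0.000214), the transcription factor gene SOX4 by 0.25 (standard error 0.04, adjusted p = 0.000120) and PROM1, which encodes the surface protein CD133, by 0.17 (standard error 0.04, adjusted p = 0.0166), all by edgeR's quasi-likelihood test, Benjamini-Hochberg. An antisense gene shares 168 exonic bases with SOX4. PROM1 was lost without control library 1, control library 3 or TKT library 1 (adjusted p from 0.0573 to 0.0800 in edgeR). SOX9, a Notch-responsive factor of biliary cells, had 41.9 ± 1.11 FPKM in the controls and 41.3 ± 1.08 FPKM under TKT (SD, n = 3 each), and the groups overlapped. The keratin genes KRT7, KRT19 and KRT23, which define bile duct cells, had 0 counts in every control and at most 6 in any TKT library. Summed FPKM of the biliary list was 375, 383 and 380 in the controls and 376, 376 and 372 under TKT, most of it from CD24 (259 FPKM on average). CD24 went the other way from the called genes, with 267 ± 4.35 FPKM in the controls and 252 ± 1.67 FPKM under TKT (SD, n = 3 each) and no overlap. It was not called by edgeR's quasi-likelihood test (adjusted p = 0.134, Benjamini-Hochberg) and was called lower by DESeq2 (adjusted p = 0.0395), the lowest of 15 alternatives that ran up to 0.332.

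The libraries were checked for the cell type of the label. All 12 hepatocyte and hepatoma markers were found, 11 of them at 1 FPKM or more, with AFP the most abundant (2641 FPKM on average), and the exception was APOB with at most 6 counts. Their summed FPKM was 5835, 5909 and 5955 in the controls and 6069, 6122 and 6204 under TKT, higher in every TKT library, and its part in the Notch values was not tested. Of the 11 tested, 4 were called (36.4%, beside 10.6% of all tested genes), APOH, FGB and FOXA2 higher and HNF4A lower; they are named after their values were seen. DLL4 and NOTCH3 are also expressed by cells of blood vessels. Of 10 endothelial markers, 6 had no entry among the genes with counts (CDH5, KDR, TEK, TIE1, EMCN and ERG). VWF and CLDN5 had at most 4 counts, and PECAM1 was the most abundant at 2.31 FPKM. The summed endothelial FPKM of 2.53, 2.41 and 2.76 in the controls and 2.54, 2.09 and 2.35 under TKT overlapped between groups. Of 10 fibroblast markers 5 had no entry among the genes with counts (COL3A1, DCN, THY1, POSTN and FAP). COL1A2 and LUM had at most 2 counts, and PDGFRA was the most abundant (0.818 FPKM). Fibroblast sums of 1.23, 1.06 and 1.01 in the controls and 1.11, 1.15 and 1.11 FPKM under TKT overlapped as well. None of the 2 tested endothelial and 3 tested fibroblast markers was called in the edgeR fit reported here, DESeq2 or limma. In that edgeR fit 0 of them had an unadjusted p under 0.05, beside 7 of 11 hepatocyte and hepatoma markers. Of all tested genes 10.6% were called in that fit and 23.8% had an unadjusted p under 0.05.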

How the data were processed

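RNA from 3 libraries of TKT-overexpressing cells and 3 of vector control cells was sequenced. According to the methods and the submitters' processing notes, the authors trimmed reads with fastp 0.22.0, aligned them to hg38 with HISAT2 2.1.0 and counted them with featureCounts, and deposited whole-number counts per gene symbol without normalization. The authors also deposited FPKM values of the same libraries, used here for levels between genes. The annotation, strand and multimapping options were not given in the sources used here. Columns headed TKT were matched to the samples titled OE by replicate number. Total counts lay between 30148788 and 37096156 per library, and pairs of replicates differed by 6.90 to 9.41 in chi-square per degree of freedom, so no library was a copy of another.

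The test on counts was run in edgeR 4.0.16 under R 4.3.3 (genes kept by filterByExpr with the group and a minimum count of 10, TMM, robust quasi-likelihood test, Benjamini-Hochberg adjustment over all 14162 tested genes). The standard error of a log2 fold change was its size divided by the square root of F. Calls were made at an adjusted p under 0.05. The common biological coefficient of variation was 0.113. Nothing in the labels says that libraries of a group came from separate cultures, so p-values measure the spread between these libraries, which may be technical. Alternatives were DESeq2 1.42.0, limma 3.58.1 on log2(FPKM + 1) and log2(FPKM + 0.1), other scalings, other filters, an absolute log2 fold change over 1, the replicate number as a block, and each library left out. Adding the NOTCH2NL copies to NOTCH2 was chosen after seeing the data. Promoter sequences were taken from RefSeq (GRCh38.p14) and gene positions from GENCODE 29 (GRCh38).

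The members and the lists (wider Notch pathway, biliary genes, and markers of hepatocytes and hepatoma, endothelium and fibroblasts) were chosen with earlier results of these data known. Genes named are TKT, the 10 members, called genes of the wider and biliary lists, the most abundant gene by FPKM of each role and marker list, and the 3 genes most like HES1 over the 6 libraries (root mean square difference of centred log2 CPM, averaging 1 or more). RBPJ, SOX9, MAML1, BHLHE40, the keratin genes and markers other than the most abundant were named outside this rule after their values were seen. So were genes that had no entry among the genes with counts or were not tested.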

Additional observations from a re-analysis of the deposited data

How the results depend on the processing

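Over 32 named genes and 480 alternative values, no called gene changed direction, while the sign of NOTCH1, NOTCH3, HEY1, NRARP and MIB1, none of them called, changed under some alternatives; 28 values of genes outside the members were no longer past the threshold and 4 newly were. The count of all called genes, 1505, was 697 with the replicate number as a block, 827 and 826 with limma on log2(FPKM + 1) and log2(FPKM + 0.1), 103 with an absolute log2 fold change over 1, 1741 with no filter on low counts, and between 791 and 1586 with 1 library left out. The 4 called members were 2 in both limma fits, 3 with DESeq2 (without DLL4, which got no adjusted p there), with the block and with a mean of at least 1 CPM, 1 with an absolute log2 fold change over 1, and between 2 and 4 with 1 library left out. The 7 called genes of the wider pathway (4 higher, 3 lower) were 10 with no filter on low counts (7 higher, 3 lower), 9 with DESeq2 (5 higher, 4 lower), 8 with upper-quartile scaling and with a mean of at least 1 CPM, 7 with RLE scaling, 6 with library totals only, 5 in both limma fits, 4 with the block, 1 with an absolute log2 fold change over 1, and between 4 and 8 with 1 library left out. The 3 called biliary genes were 4 with DESeq2, 2 with the block, 0 with an absolute log2 fold change over 1, and 2 or 3 with 1 library left out. A stricter threshold leaves fewer calls by construction, and the cause of the other shifts was not tested. The balance of directions among all called genes, 806 higher and 699 lower, was 737 and 775 with DESeq2, 892 and 577 with upper-quartile scaling, and 99 and 4 with an absolute log2 fold change over 1. No pairing of the libraries by replicate number was seen. Deviations of same-numbered libraries from their group means correlated across genes at r = -0.0019, -0.0252 and 0.0156, and not every library correlated best with its own number. These correlations weigh low and high genes alike, so they cannot exclude a pairing. With the block, DLL4, CREBBP, TLE1, HDAC1 and PROM1 were no longer called. MIB2, MAML3, BHLHE41, TLE5, SOX4 and SPP1 were called at an adjusted p under 0.05 in all 15 alternatives other than the absolute log2 fold change over 1, which BHLHE41 alone of these passed. Under the other scalings in edgeR the median log2 fold change over all genes lay between 0.000985 and 0.0133. Depth limits DLL4 most, with 4 to 12 counts in the controls, and HEY1 and DLL3 had at most 132 counts in any library.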
